A study of Mus musculus with 24 samples.

Results

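Circadian clock genes were followed across all 24 arrays of the series. They comprise 10 genes, namely Arntl, Clock, Per1, Per2, Per3, Cry1, Cry2, Nr1d1, Nr1d2 and Dbp, and were taken as every probe whose gene name on the arrays was one of these or an older synonym of it. All 10 were found, with 18 of the 41174 probes that are not controls, among 18434 protein-coding genes with a probe. Where a gene had several probes, the brightest over the 24 arrays stands for it and the others are given where they differ.

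The cells are a mouse embryonic fibroblast (MEF) line without Ku70, the DNA end-binding protein encoded by Xrcc6. By the labels every group, controls included, carries the deletion, and cells with Ku70 were not analysed here. The Xrcc6 probe was nonetheless well above background on all 24 arrays, with group means from -0.58 to 0.51 on the level scale defined below, and whether it lies in the deleted stretch is not known here, so it does not check the labels. In the first set of arrays, cells were untreated, were exposed to 20 mM potassium bromate (KBrO3), an oxidant, for 1 hr, or received KBrO3 together with 150 μM bisphenol A (BPA), which was also present before and after the KBrO3. The treated cells were harvested 4 or 24 hr after the start of KBrO3. The second set holds its own untreated cells and cells given 150 μM BPA alone, labelled 4 and 24 hr. The treatment notes and the Methods differ by 1 hr in how long BPA alone was present, and the labelled times are used below. Each of the 8 groups has 3 arrays, described by the study as biological replicates. The untreated arrays of the first set are labelled 4 hr, those of the second set carry no time, and KBrO3-treated cells were washed and given fresh medium, a step not described for untreated cells. Medium change and treatment therefore cannot be told apart in comparisons of KBrO3-treated cells with control. By the labels harvest time is matched in the 4 hr comparisons of the first set, but not at 24 hr, and in the second set it is not given for the controls.

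In mammals the proteins of Arntl (BMAL1) and Clock pair up and bind E-boxes, through which they switch on the Per and Cry genes, Nr1d1, Nr1d2 and Dbp. The PER and CRY proteins feed back to shut off this activator, and the nuclear receptors encoded by Nr1d1 and Nr1d2 (REV-ERB alpha and beta) repress Arntl. DBP carries the rhythm to output genes by binding D-boxes. Cultured fibroblasts keep this oscillator cell by cell, and serum or fresh medium can bring the cells to a common phase.

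The share of spots well above background ran from 57.7% to 68.1% per array in the first set, while the second had 76.4% to 79.4%. Representative probes of 9 clock genes were well above background on every array, and that of Per3 on 13 of 15 arrays of the first set and all 9 of the second. The median residual SD over probes was 0.107 log2 units for the first 15 arrays and 0.340 for the other 9, so differences of the same size are measured less precisely for BPA alone. Of 10 fibroblast markers, 9 were well above background on all 24 arrays and Thy1 on 19, while the endothelial genes Pecam1 and Tie1 and the leukocyte gene Ptprc were so on none. The summed fibroblast markers lay below those of the controls, at 10.41 to 10.51, in all 4 treated groups of the first set. They were at 10.27 to 10.34 after KBrO3 and 10.05 to 10.09 after co-exposure at 4 hr, and at 8.96 to 9.09 and 8.58 to 8.76 at 24 hr. The skeletal muscle markers were also lower at 24 hr, at -2.17 to -1.94 and -3.99 to -2.57 against -1.08 to -0.76. After co-exposure at 4 hr the skeletal muscle (-0.75 to -0.41), epithelial (-2.36 to -2.33 against -3.78 to -3.29) and leukocyte (-2.19 to -2.13 against -3.02 to -2.47) sums were higher than in the controls. After co-exposure at 24 hr the endothelial (-4.25 to -3.84 against -3.49 to -3.09) and leukocyte (-3.44 to -3.06) sums were lower. In the second set the skeletal muscle markers summed to -0.85 to -0.58 in the controls, -0.50 to -0.21 after BPA at 4 hr and -1.73 to -1.31 at 24 hr. The other sums overlapped those of the controls of their set. The part of these shifts in the results below was not tested. In such bulk RNA, fewer cells that express a gene and less RNA per cell cannot be told apart. Levels below are log2 processed signals minus the 75th percentile of the array, so that 0 is that percentile and a step of 1 is a 2-fold change, and a level is not comparable between genes because it depends on the probe.

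At 4 hr after KBrO3, 9 of the 10 clock genes had changed, and Dbp fell most while Cry1, Clock and Arntl rose most. A gene was called changed when its Benjamini-Hochberg adjusted p from limma was below 0.05 over all probes of the set. With KBrO3 alone, 7 clock genes were higher, 2 were lower and only Nr1d1 was not called. Among all 14100 genes tested, 34.5% were called higher and 38.2% lower in that comparison. With co-exposure, 8 were higher and 2 lower, against 39.7% and 40.7% of all genes. With arrays scaled to their median, which moved the median of all genes in the co-exposed comparison from 0.0065 to -0.14, 6 were higher and 2 lower there, as Per1 and Nr1d1 lost their calls. The median log2 difference of the clock genes was 0.56 after KBrO3 and 0.59 after co-exposure, against medians of 0.020 and 0.0065 over all genes. Both comparisons use the same 3 control arrays.

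**Figure D1:**
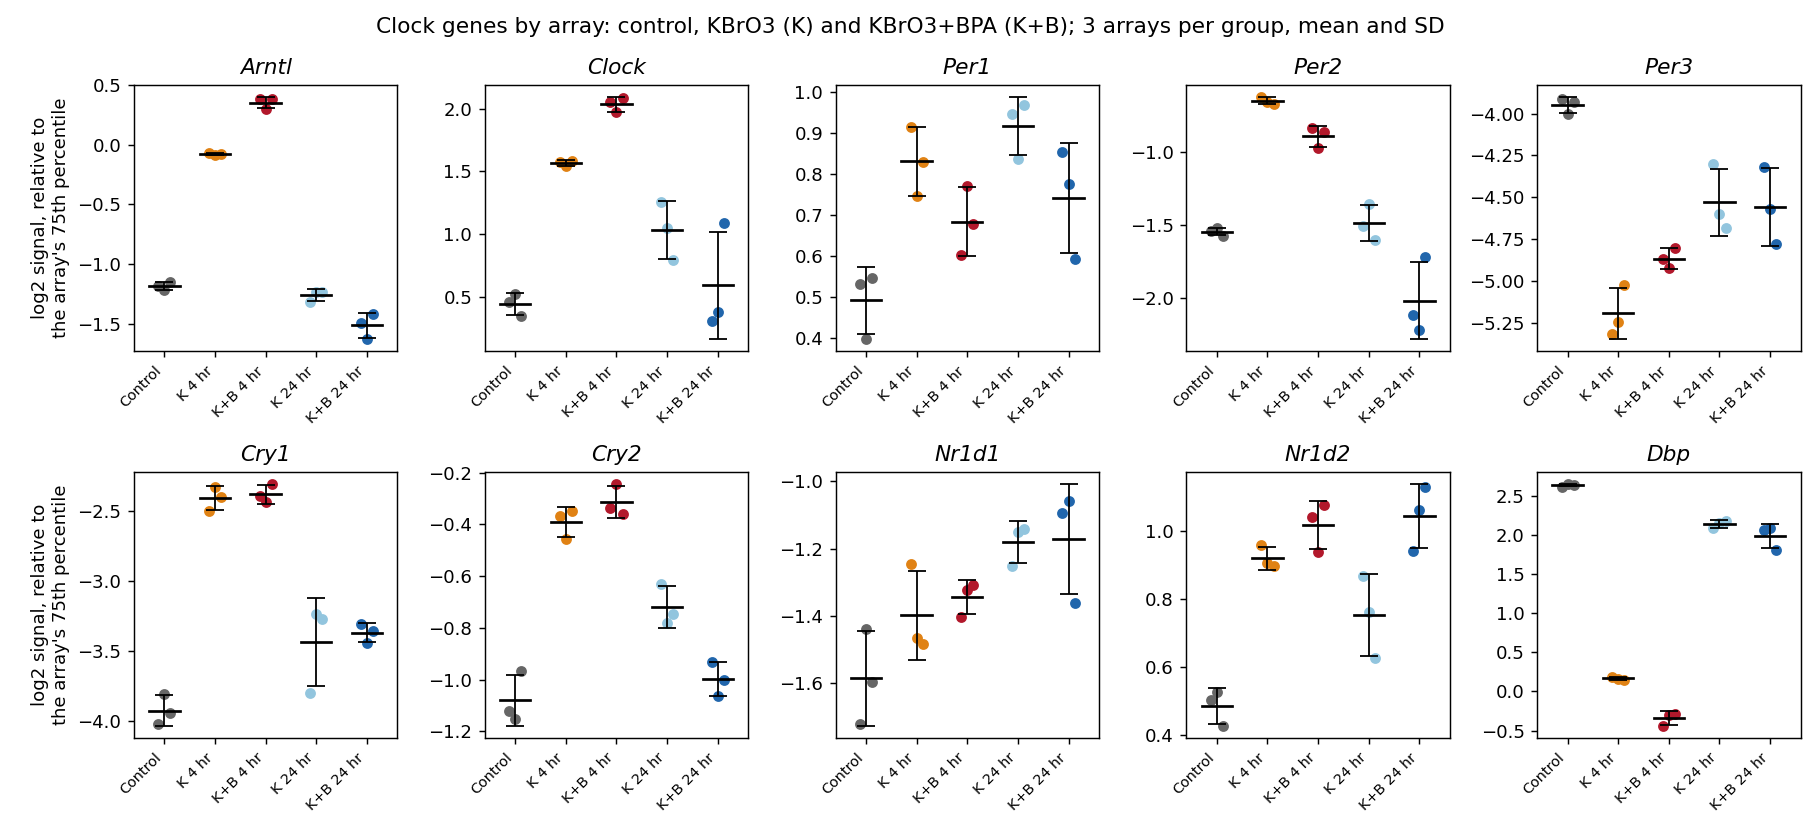
Level of each clock gene on each array of the first set, as log2 signal relative to the array's 75th percentile, for control, KBrO3 (K) and KBrO3+BPA (K+B) cells at 4 and 24 hr. Points are arrays, lines are means and bars are the SD over 3 arrays, and the vertical scale differs between genes. Dbp drops from 2.62 to 2.65 in the controls to 0.15 to 0.18 at 4 hr after KBrO3, while Arntl, Clock and Cry1 stand above control at that time.

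Arntl, the partner of CLOCK and the only one of the 10 genes whose loss alone stops the oscillator in mice, rose at 4 hr. Its level was -1.19, -1.22 and -1.15 on the control arrays, -0.07, -0.09 and -0.08 after KBrO3 at 4 hr and 0.38, 0.30 and 0.38 after co-exposure at 4 hr. The 3 groups did not overlap, and the co-exposed arrays stood above the KBrO3 arrays. The log2 difference from control was 1.11 (SE 0.052, adjusted p = 1.22e-09) after KBrO3, a 2.16-fold rise, and 1.54 (SE 0.052, adjusted p = 5.07e-11) after co-exposure, a 2.91-fold rise. At 24 hr the arrays read -1.32, -1.23 and -1.23 after KBrO3 and -1.49, -1.63 and -1.42 after co-exposure. Both groups lay below every control array, but only the co-exposed group was called lower, with a log2 difference of -0.33 (adjusted p = 1.14e-04), and that call was lost when arrays were scaled to their median (-0.01, adjusted p = 0.915). The probe behind these values is shown because its reading frame is open over all 60 bases and the gene has no other probe. In the mm7 annotation of the array files it lies at chr7:109229489-109229548, plus strand.
Arntl probe A_52_P267651: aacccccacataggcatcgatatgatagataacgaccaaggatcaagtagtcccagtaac

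Clock, the other member of the activator pair, rose with Arntl. Its level was 0.45, 0.52 and 0.35 in the controls, 1.58, 1.54 and 1.59 after KBrO3 at 4 hr and 2.05, 1.97 and 2.08 after co-exposure. All 6 treated arrays lay above the controls and the co-exposed above the KBrO3 arrays. The log2 difference was 1.13 (SE 0.17, adjusted p = 7.01e-05) after KBrO3 and 1.60 (SE 0.17, adjusted p = 2.77e-06) after co-exposure. At 24 hr the arrays read 1.26, 1.05 and 0.79 after KBrO3, still above every control (0.59, adjusted p = 0.00903). After co-exposure they read 0.31, 0.38 and 1.09, which overlap the controls (0.15, adjusted p = 0.455). The highest of these, replicate 3, was the only array of the series on its slide, and was also the highest of its group for Per2.

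Cry1, a repressor of the activator pair, rose at 4 hr in both treatments. Its level was -4.03, -3.81 and -3.95 in the controls, -2.50, -2.33 and -2.40 after KBrO3 and -2.40, -2.44 and -2.31 after co-exposure. The treated groups overlapped each other and both lay well above control, with log2 differences of 1.52 (SE 0.12, adjusted p = 2.29e-07) and 1.55 (SE 0.12, adjusted p = 1.7e-07). At 24 hr the arrays read -3.80, -3.24 and -3.28 after KBrO3 and -3.31, -3.44 and -3.36 after co-exposure, all above the controls but by less, at 0.49 (adjusted p = 0.00406) and 0.56 (adjusted p = 0.00162). The rise at 24 hr after KBrO3 was not called by the other Cry1 probe (0.19, adjusted p = 0.299), and at 4 hr that probe gave 1.94 and 1.84. Cry1 is dim, and its values depended on the background correction. With normexp as planned, whose fit was degenerate on several arrays, the 4 differences were -0.12 and -0.12 at 4 hr and -1.01 and -0.84 at 24 hr, none called. With extreme spots limited they were 0.98 and 0.93 at 4 hr, both called, and 0.14 (adjusted p = 0.194) and 0.30 (adjusted p = 0.00977) at 24 hr.

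Cry2, the paralogous repressor, rose by less. Its level was -1.12, -1.15 and -0.97 in the controls, -0.37, -0.46 and -0.35 after KBrO3 at 4 hr and -0.34, -0.24 and -0.36 after co-exposure. All treated arrays exceeded the controls, by 0.69 (SE 0.063, adjusted p = 6.51e-07) and 0.77 (SE 0.063, adjusted p = 2.05e-07). At 24 hr Cry2 stayed higher after KBrO3 (0.36, adjusted p = 2.8e-04) and was not called after co-exposure (0.08, adjusted p = 0.262). Its dimmer probe gave 0.45 after KBrO3 at 4 hr, which was called, and 0.12 after co-exposure, which was not (adjusted p = 0.348). At 24 hr it was not called after KBrO3 (0.25, adjusted p = 0.0797) or co-exposure (0.09, adjusted p = 0.509). The Cry2 call after KBrO3 at 4 hr was lost in 1 of 17 alternative settings (adjusted p = 0.09). The call after KBrO3 at 24 hr was lost with all 24 arrays in 1 fit, and the value was -0.027 with planned normexp.

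Per2, a repressor that partners the CRY proteins, was the PER gene with the clearest rise at 4 hr. Its level was -1.54, -1.52 and -1.57 in the controls, -0.63, -0.66 and -0.67 after KBrO3 and -0.84, -0.98 and -0.87 after co-exposure. The groups did not overlap, and here the co-exposed arrays stood below the KBrO3 arrays, a gap that was not called (-0.24, adjusted p = 0.0683). The log2 differences were 0.89 (SE 0.11, adjusted p = 7.47e-06) and 0.65 (SE 0.11, adjusted p = 1.14e-04). Under the alternative settings they fell to as little as 0.42 (adjusted p up to 0.0674) and 0.21 (adjusted p up to 0.32). The calls were lost in 2 of 17 settings after KBrO3 and 2 of 16 after co-exposure. At 24 hr after KBrO3 the arrays read -1.50, -1.36 and -1.60, around the controls (0.06, adjusted p = 0.655). After co-exposure they read -2.11, -2.22 and -1.72, below every control (-0.47, adjusted p = 0.00165), a call that was lost with scaling to the median (-0.16, adjusted p = 0.274). The dimmer Per2 probe A_52_P536869 was not called after KBrO3 at 4 hr (0.54, adjusted p = 0.306) or after co-exposure at 24 hr (-0.75, adjusted p = 0.158). At 4 hr its 3 co-exposed arrays lay above the KBrO3 arrays, by 0.71, which was not called (adjusted p = 0.204).

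Per1 and Per3 moved in opposite directions. Per1 ranged from 0.40 to 0.54 in the controls and from 0.59 to 0.97 on the 12 treated arrays, with no overlap. The log2 difference was 0.34 (adjusted p = 0.00153) after KBrO3 at 4 hr, a call lost in 3 of 17 alternative settings (adjusted p up to 0.0718). After co-exposure at 4 hr it was 0.19 (adjusted p = 0.036), which was not called without control replicate 2 or co-exposed replicate 2 or 3. Nor was it called with scaling to the median (0.05, adjusted p = 0.657), quantile normalization (0.14, adjusted p = 0.102) or slide as a random block (0.13, adjusted p = 0.374). At 24 hr it was 0.43 (adjusted p = 3.42e-04) after KBrO3 and 0.25 (adjusted p = 0.0113) after co-exposure, the latter not called without control replicate 2 or co-exposed 24 hr replicate 1, nor with slide as a random block (0.24, adjusted p = 0.101), and 0.57 with scaling to the median.

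Per3 fell in every treated group. Its level was -3.91, -4.00 and -3.93 in the controls, -5.32, -5.24 and -5.02 after KBrO3 at 4 hr and -4.87, -4.93 and -4.80 after co-exposure. The log2 differences were -1.25 (SE 0.12, adjusted p = 1.31e-06) and -0.92 (SE 0.12, adjusted p = 2.01e-05), but only 1 of the 3 KBrO3 arrays was well above background there, so the lowest of these levels are close to background. At 24 hr the arrays lay between -4.30 and -4.78, again below every control, with differences of -0.58 (adjusted p = 0.00115) after KBrO3 and -0.61 (adjusted p = 7.7e-04) after co-exposure. The direction held under the alternatives run, but the sizes did not. With normexp after limiting extreme spots the 4 hr differences were -0.39 after KBrO3 and -0.42 after co-exposure. With planned normexp those at 24 hr were -1.57 and -1.45, and after co-exposure at 24 hr the difference was -0.29 with scaling to the median and -0.24 with quantile normalization. In these settings Per3 was still called. With all 24 arrays in 1 fit only KBrO3 at 4 hr was called (adjusted p = 0.0422), as the others had adjusted p of 0.117 for co-exposure at 4 hr and 0.373 and 0.333 for KBrO3 and co-exposure at 24 hr.

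Nr1d2, which encodes REV-ERB beta, rose modestly in all 4 treated groups. It ranged from 0.43 to 0.53 in the controls and from 0.63 to 1.13 on the 12 treated arrays, with no overlap. The log2 differences were 0.43 (adjusted p = 7.6e-05) after KBrO3 and 0.53 (adjusted p = 1.14e-05) after co-exposure at 4 hr, and 0.27 (adjusted p = 0.00366) and 0.56 (adjusted p = 1.03e-05) at 24 hr. Under the alternative settings the 24 hr values reached 0.42 after KBrO3 and 0.88 after co-exposure. The 24 hr calls were lost in 3 of 16 settings after KBrO3 and 2 of 16 after co-exposure.

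Nr1d1, which encodes REV-ERB alpha, gave an answer that depended on the probe. On its brightest probe it ranged from -1.72 to -1.44 in the controls and from -1.48 to -1.06 on the treated arrays, and it was 0.19 (adjusted p = 0.0937) after KBrO3 and 0.24 (adjusted p = 0.034) after co-exposure at 4 hr. The latter was not called without control replicate 1 or 3 or co-exposed replicate 2 or 3, with scaling to the median (0.10, adjusted p = 0.504) or with slide as a random block (0.25, adjusted p = 0.18), and it was -0.11 with planned normexp. At 24 hr it was called higher in both, at 0.40 (adjusted p = 0.00236) and 0.41 (adjusted p = 0.00188), although both were -0.05 with planned normexp, the former was not called with slide as a random block (0.34, adjusted p = 0.0613) and the latter was 0.73 with scaling to the median. The other 2 probes were not called at 24 hr, at 0.45 and 0.66 after KBrO3 and 0.18 and -0.21 after co-exposure.

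The 2 dimmer Nr1d1 probes rose after co-exposure at 4 hr far more than the brightest did. Probe A_52_P130952 read -4.15, -3.72 and -3.99 in the controls, -4.06, -3.92 and -3.35 after KBrO3 at 4 hr and -2.79, -2.86 and -2.86 after co-exposure, a log2 difference from control of 1.12 (SE 0.23, adjusted p = 8.31e-04). Probe A_52_P130961, designed to the transcript AK146430, read -4.43, -4.34 and -3.96 in the controls and -2.23, -2.28 and -2.28 after co-exposure, a difference of 1.98 (SE 0.39, adjusted p = 5.05e-04). The 3 co-exposed arrays at 4 hr shared a slide with KBrO3 24 hr replicate 1, and that array read -2.90 and -2.39 on these probes, against -3.76 and -3.85, and -4.22 and -4.15, on the other KBrO3 24 hr arrays. These high readings thus include every array of that slide, and for these probes the slide and co-exposure cannot be told apart. The dimmer Per2 probe, A_52_P536869, read -2.40, -2.48 and -2.48 on the co-exposed arrays, -2.81 on that KBrO3 24 hr array and -4.17 and -4.31 on the others of its group, but it also read -2.79 on control replicate 1 and -2.97 and -2.70 on KBrO3 4 hr replicates 2 and 3, which lie on other slides. The pair of Nr1d1 probes below is shown because they target the same gene and disagree, and each has an open reading frame over its 60 bases. In the mm7 annotation they lie on the minus strand of chromosome 11, the first across a splice junction within chr11:98878251-98878753 and the second at chr11:98881057-98881116.
Nr1d1 probe A_51_P223776, brightest: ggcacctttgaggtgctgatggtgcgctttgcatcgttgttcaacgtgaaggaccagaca
Nr1d1 probe A_52_P130952: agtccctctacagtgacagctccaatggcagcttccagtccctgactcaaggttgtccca

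Clock also had probes that differed. Probes A_52_P161365 and A_52_P334677 rose like the brightest, by 1.14 and 0.76 after KBrO3 and by 1.92 and 1.05 after co-exposure at 4 hr. Probe A_52_P279391, designed to the transcript AK030352, rose by only 0.31 (adjusted p = 0.00212) after KBrO3, was not called after co-exposure (-0.06, adjusted p = 0.441) and was lower at 24 hr in both, at -0.30 (adjusted p = 0.00309) and -0.50 (adjusted p = 6.46e-05). Nor did the rise at 24 hr after KBrO3 appear on probe A_52_P161365, which gave -0.19 (adjusted p = 0.0995), although probe A_52_P334677 gave 0.29 (adjusted p = 0.00339).

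**Figure D2:**
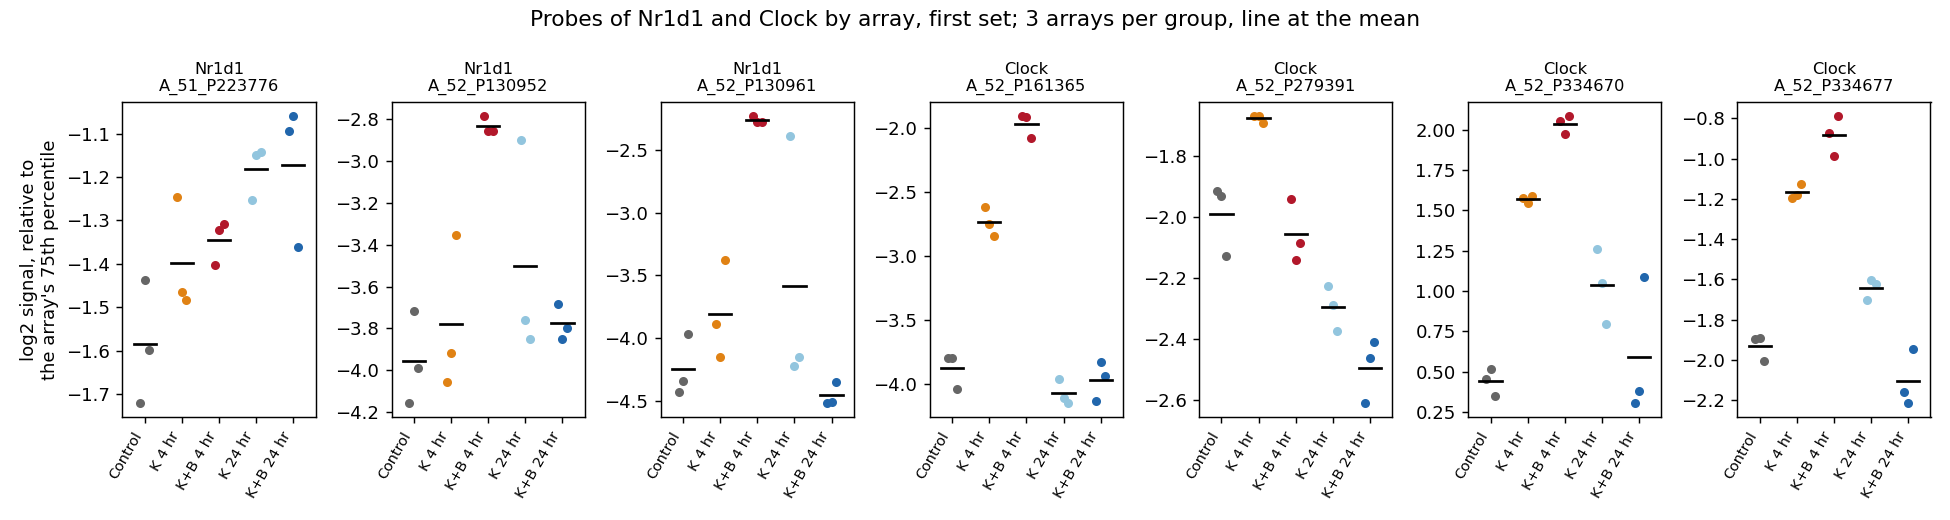
Each probe of Nr1d1 and Clock on the arrays of the first set, as log2 signal relative to the array's 75th percentile, with points for arrays and a line at the group mean of 3 arrays. On Nr1d1 probes A_52_P130952 and A_52_P130961 the 3 KBrO3+BPA arrays at 4 hr and 1 KBrO3 array at 24 hr stand apart from all others, while on Clock probe A_52_P279391 the co-exposed arrays do not stand above control.

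Dbp, an activator at D-boxes that is itself driven by the CLOCK-BMAL1 pair, showed the largest difference from control of the 10 genes at 4 hr in both treatments, and it was downward. Its level was 2.62, 2.65 and 2.64 on the control arrays, 0.18, 0.16 and 0.15 after KBrO3 at 4 hr and -0.44, -0.30 and -0.28 after co-exposure at 4 hr. The 3 groups were far apart, with no overlap. Dbp was 5.54-fold lower after KBrO3 (log2 difference -2.47, SE 0.067, adjusted p = 1.08e-11) and 7.88-fold lower after co-exposure (-2.98, SE 0.067, adjusted p = 1.79e-12). By 24 hr the arrays read 2.08, 2.16 and 2.18 after KBrO3 and 2.06, 2.08 and 1.81 after co-exposure. They were closer to the controls but all remained below the lowest of them, with log2 differences of -0.50 (adjusted p = 3.44e-05) and -0.65 (adjusted p = 2.69e-06). Under the alternative settings the 24 hr difference shrank to as little as -0.20 after KBrO3 (adjusted p up to 0.232), with the call lost in 3 of 16. After co-exposure it shrank to as little as -0.33, with the call lost in 1 of 16. Against the 1 control array on the same slide as the KBrO3 4 hr arrays, the difference was -2.48, as large as over all controls.

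Within that slide, which is the only one to hold controls and treated arrays in the first set, Arntl was 1.07 higher, Clock 1.22, Cry1 1.54, Cry2 0.58, Per2 0.92, Nr1d2 0.49 and Per1 0.29, and Per3 differed by -1.26. These are close to the values over all arrays. No other slide of these 15 arrays joins a treated group to control, and for the other 3 treated groups the slide cannot be told apart from the treatment.

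At 24 hr the median absolute difference from control of the clock genes was smaller than at 4 hr, although Per1 and Nr1d1 differed by more in both treatments and Nr1d2 by more after co-exposure. After KBrO3 alone, 6 clock genes were higher, 2 lower and 2 not called, against 31.3% of all genes called higher and 38.1% lower. After co-exposure 4 were higher, 4 lower and 2 not called, against 34.5% and 38.0% of all genes. This split depends on the scaling. With arrays scaled to their median, which moved the median of all genes in the co-exposed comparison from -0.059 to 0.26, 6 were higher and 2 lower, as Arntl and Per2 lost their calls and Cry2 (0.40, adjusted p = 1.23e-04) and Clock (0.47, adjusted p = 0.018) were called higher. With all 24 arrays in 1 fit the calls of Per3 and Cry1 were lost in both treatments, those of Cry2 and Nr1d2 after KBrO3 and those of Per1 and Arntl after co-exposure. The median absolute log2 difference of the clock genes went from 1.00 at 4 hr to 0.41 at 24 hr after KBrO3 and from 0.84 to 0.44 after co-exposure, while over all genes it went from 0.55 to 0.43 and from 0.70 to 0.49.

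**Figure D3:**
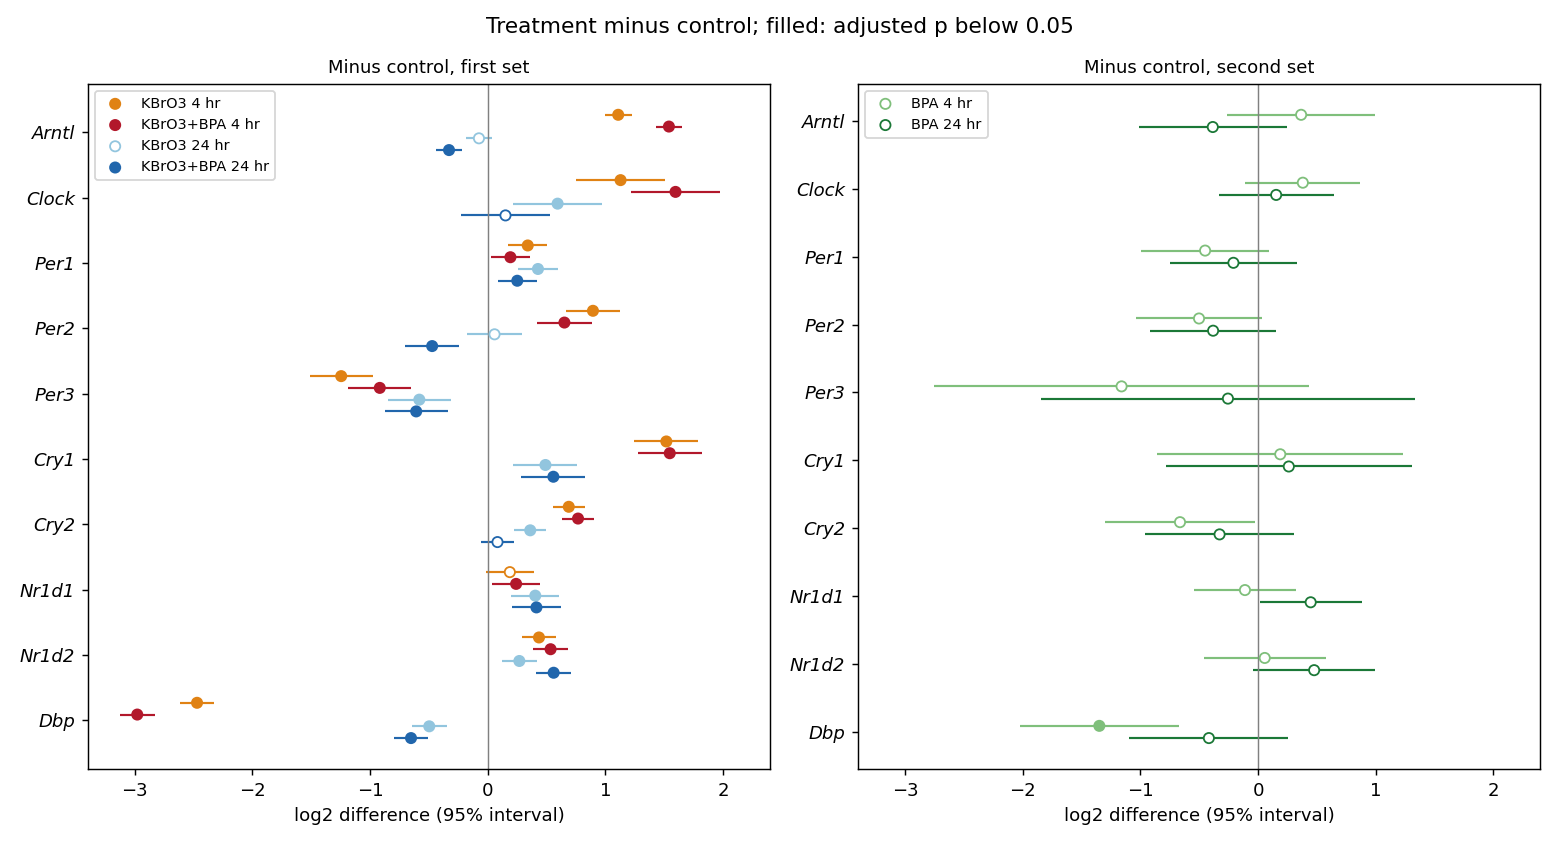
Log2 difference of each clock gene from the controls of its own set, with its 95% interval, for KBrO3 and KBrO3+BPA (left) and BPA alone (right). Filled points have an adjusted p below 0.05. In the first set the 4 hr points lie farther from 0 than the 24 hr points for Dbp, Arntl, Clock and Cry1, and in the second set only Dbp at 4 hr, at -1.35, is filled.

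The change from 4 to 24 hr was tested directly. The first set holds no untreated arrays labelled 24 hr, so time in culture, time since the medium change and recovery from treatment cannot be told apart here. In neither treatment do the arrays of 4 and 24 hr share a slide, and for KBrO3 slide and time cannot be told apart. After KBrO3, 2 clock genes were higher at 24 than at 4 hr and 6 were lower, against 34.0% and 43.8% of all genes. Dbp rose by 1.97 (adjusted p = 9.53e-11) and Per3 by 0.66 (adjusted p = 3.45e-04), whereas Arntl (-1.18, adjusted p = 8.19e-10), Cry1 (-1.03), Per2 (-0.84), Clock (-0.54), Cry2 (-0.33) and Nr1d2 (-0.17) fell. The Nr1d2 call was lost without any 1 of the KBrO3 4 hr arrays or without KBrO3 24 hr replicate 2 or 3, and the Clock call without KBrO3 24 hr replicate 3. After co-exposure 2 were higher and 5 lower, against 37.1% and 47.4% of all genes. Dbp rose by 2.33 (adjusted p = 1.85e-11) and Per3 by 0.31 (adjusted p = 0.0342), and Arntl (-1.87, adjusted p = 1.4e-11), Clock (-1.44), Per2 (-1.12), Cry1 (-0.99) and Cry2 (-0.68) fell. The dimmer Cry2 probe was not called in either, at -0.21 and -0.03. After co-exposure the dimmer Nr1d1 probes fell by 0.94 and 2.20, where the brightest was not called (0.17), with the slide limit given above. Only 1 of the 3 KBrO3 4 hr arrays was well above background for Per3. The Per3 changes were not called with either normexp background correction, where that after KBrO3 turned to -0.28 or -0.11, and the smaller was lost without any 1 of 4 co-exposed arrays. With scaling to the median, which moved the median of all genes from -0.13 to 0.021 for KBrO3 and from -0.16 to 0.30 for co-exposure, the counts were 4 higher and 5 lower after KBrO3 and 5 and 5 after co-exposure, as Per1 and Nr1d1 were called higher in both, Nr1d2 was called higher after co-exposure and Nr1d2 was no longer called lower after KBrO3. Quantile normalization gave 3 and 4 after KBrO3.

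BPA added to KBrO3 was compared with KBrO3 alone at each time. At 4 hr it went with higher Arntl and lower Dbp, and Clock and Per3 were also called higher. The Arntl and Dbp calls held without any 1 array. Each was lost under 4 of 16 alternative settings, with adjusted p up to 0.0814 for Arntl and 0.0632 for Dbp. The calls of Clock and Per3 depended on both the arrays and the settings used. For Arntl the log2 difference was 0.43 (SE 0.052, adjusted p = 3.01e-05) and for Dbp -0.51 (SE 0.067, adjusted p = 6.04e-05), and for both genes the 3 co-exposed arrays lay outside the range of the KBrO3 arrays. Clock was 0.47 higher (SE 0.17, adjusted p = 0.0351) and Per3 0.33 higher (SE 0.12, adjusted p = 0.0376), also without overlap, but only 1 of the 3 KBrO3 arrays was well above background for Per3. In all, 3 genes were higher and 1 lower, against 28.1% and 32.7% of all genes. With scaling to the median, which moved the median of all genes from -0.018 to -0.16, it was 1 higher (Arntl) and 3 lower (Dbp, Per1 and Per2), and with quantile normalization 2 and 2. The Clock call was lost without any 1 of the 6 arrays compared and the Per3 call without 5 of them, with adjusted p between 0.0554 and 0.129. With normexp background correction after limiting extreme spots the Per3 difference was -0.03, so its direction is not settled. The arrays of these groups lie on separate slides, so slide and BPA cannot be told apart. With slide as a random block only Arntl and Dbp were called. Other probes differed from the brightest here. Clock probe A_52_P279391 was lower (-0.38, adjusted p = 0.00102), against 0.77 and 0.28 higher on A_52_P161365 and A_52_P334677. The dimmer Cry2 probe was lower (-0.33, adjusted p = 0.0284), and Nr1d1 probes A_52_P130952 and A_52_P130961 were 0.94 and 1.54 higher, with the slide limit given above.

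At 24 hr BPA added to KBrO3 went with lower Per2, Cry2 and Arntl and higher Nr1d2. Per2 was 0.53 lower (log2 difference -0.53, SE 0.11, adjusted p = 0.00142), Cry2 differed by -0.28 (SE 0.063, adjusted p = 0.0032), Arntl by -0.25 (SE 0.052, adjusted p = 0.00169) and Nr1d2 by 0.29 (SE 0.067, adjusted p = 0.00352). In all 4 genes the groups did not overlap. This is 1 gene higher and 3 lower, against 28.5% and 21.9% of all genes. Clock was -0.44 and just missed the threshold (adjusted p = 0.0526). Without co-exposed replicate 3 it was -0.69 (adjusted p = 2.7e-04), and 2 of its other probes were lower, A_52_P334677 at -0.46 (adjusted p = 2.22e-04) and A_52_P279391 at -0.20 (adjusted p = 0.0464), while A_52_P161365 was not called (0.10). The dimmer Cry1 probe was higher (0.44, adjusted p = 0.031). On the slide that holds 2 arrays of each group the differences were -0.69 for Per2, -0.23 for Cry2, -0.33 for Arntl and 0.31 for Nr1d2. Scaling to the array median moved the median of all genes in this comparison from 0.0052 to 0.17, and the Cry2 and Arntl calls were then lost, at -0.11 and -0.09, which left 1 gene higher and 1 lower. With normexp as planned none of the 4 genes was called, and with all 24 arrays in 1 fit only 1 clock gene was. Over the alternative settings adjusted p reached 0.18 for Per2 and 0.186 for Nr1d2.

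**Figure D4:**
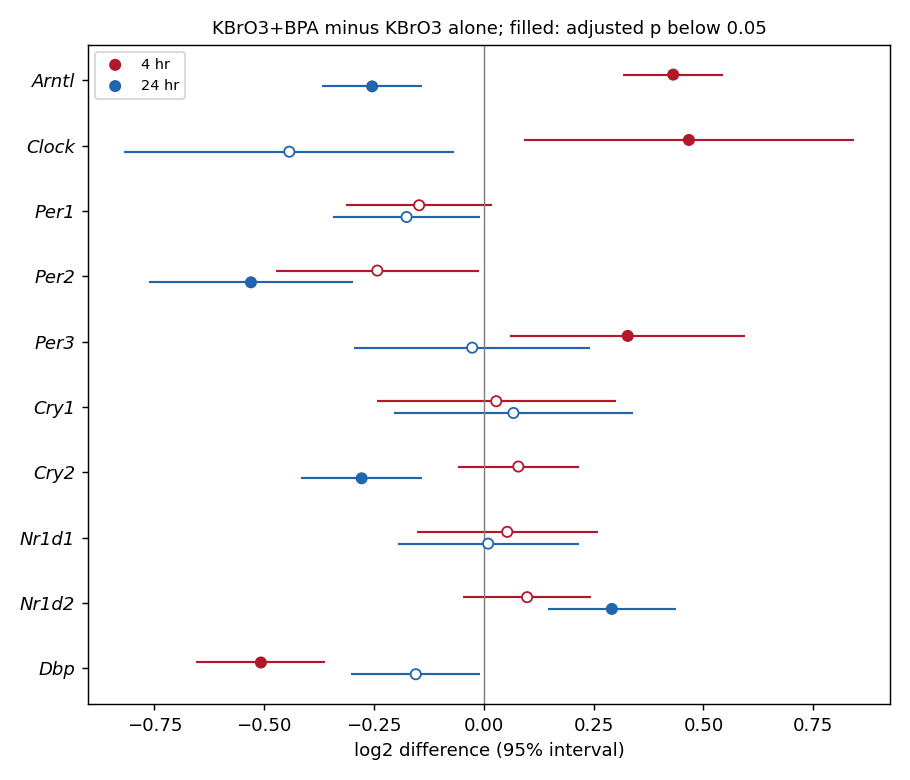
Log2 difference between KBrO3+BPA and KBrO3 alone for each clock gene at 4 hr and at 24 hr, with its 95% interval. Filled points have an adjusted p below 0.05. Arntl is 0.43 higher at 4 hr and 0.25 lower at 24 hr, and for Dbp the 4 hr point at -0.51 lies below the 24 hr point at -0.16.

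Whether the effect of added BPA differed between the times was tested as the change of that difference from 4 to 24 hr. It was called for 4 clock genes, against 57.4% of all genes. The change was -0.69 (SE 0.074, adjusted p = 1.9e-05) for Arntl, -0.91 (SE 0.24, adjusted p = 0.00788) for Clock, -0.36 (SE 0.089, adjusted p = 0.00529) for Cry2 and 0.35 (SE 0.095, adjusted p = 0.00833) for Dbp. For Arntl the difference itself went from higher to lower. The Cry2 change was not called with scaling to the median (-0.05, adjusted p = 0.706) or with the mean of its probes. Scaling to the median also moved Arntl to -0.37 (adjusted p = 0.0261), Clock to -0.60 (adjusted p = 0.0387) and Dbp to 0.66 (adjusted p = 0.00315). With all 24 arrays in 1 fit only Clock was called, as Arntl had an adjusted p of 0.0588, Dbp 0.404 and Cry2 0.359, and planned normexp gave 0.053, 0.546 and 0.645 for the same genes. With scaling to the median Nr1d2 was called in its place (0.50, adjusted p = 0.00253).

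BPA alone was compared with the controls of the second set. At 4 hr Dbp was the 1 clock gene called, and it was lower, as it was in the first set. Its level was 3.09, 2.98 and 2.54 in the controls, 1.09, 2.01 and 1.47 after BPA at 4 hr and 2.79, 2.55 and 2.02 at 24 hr. The 4 hr arrays lay below every control, a 2.55-fold lower mean (log2 difference -1.35, SE 0.30, adjusted p = 0.0393), and the 24 hr arrays overlapped the controls (-0.42, adjusted p = 0.507). The 4 hr call was lost without any 1 of the controls, without BPA 4 hr replicate 1 or 3 or without BPA 24 hr replicate 2, with adjusted p between 0.0603 and 0.153. On the slide with 1 control and 2 BPA 4 hr arrays the difference was -1.81. None of the clock genes was called higher at 4 hr, where 3.01% of all genes were higher and 1.67% lower.

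The other clock genes were not called after BPA at 4 hr. Cry2 read -0.56, -0.04 and -0.09 in the controls and -0.65, -1.29 and -0.74 after BPA at 4 hr, without overlap, but the log2 difference of -0.66 was not called (SE 0.28, 95% interval -1.30 to -0.03, adjusted p = 0.245). Clock read 0.87, 0.88 and 0.73 in the controls and 1.03, 1.57 and 1.02 after BPA at 4 hr, again without overlap, at 0.38 (95% interval -0.11 to 0.87, adjusted p = 0.393). Arntl was 0.37 (95% interval -0.26 to 0.99). Per3 was -1.16 (95% interval -2.75 to 0.43), with 1 control array at -0.94 and the others at -3.33 and -3.25.

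At 24 hr of BPA alone limma called 0 of the 10 clock genes, against 1.83% of all genes higher and 2.48% lower. At an unadjusted p below 0.05, for which the share of all genes was not counted, 1 gene passed, Nr1d1. It lay between -2.16 and -1.73 in the controls and read -1.56, -1.44 and -1.55 after BPA (0.45, 95% interval 0.01 to 0.88, adjusted p = 0.26). From 4 to 24 hr of BPA limma again called 0, against 1.25% of all genes higher and 3.06% lower. At the unadjusted cut, again without a share of all genes to set beside it, 3 genes passed. These were Dbp at 0.93 (adjusted p = 0.126), Nr1d1 at 0.56 (adjusted p = 0.149) and Arntl at -0.75 (adjusted p = 0.177), each without overlap. For Nr1d1 the other 2 probes had the opposite sign in both comparisons, at -0.34 and -0.57 against control and -0.20 and -0.36 against 4 hr, none of them called. Probes beyond the brightest also differed for Cry1 and Clock. Cry1 probe A_52_P420500 was 0.80 after BPA at 4 hr, without overlap (adjusted p = 0.0619), and changed by -0.63 from 4 to 24 hr (adjusted p = 0.123), against 0.19 and 0.07 on the brightest. Clock probe A_52_P161365 was 1.36 at 4 hr (adjusted p = 0.193) and changed by -1.23 (adjusted p = 0.226), with overlap in both.

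**Figure D5:**
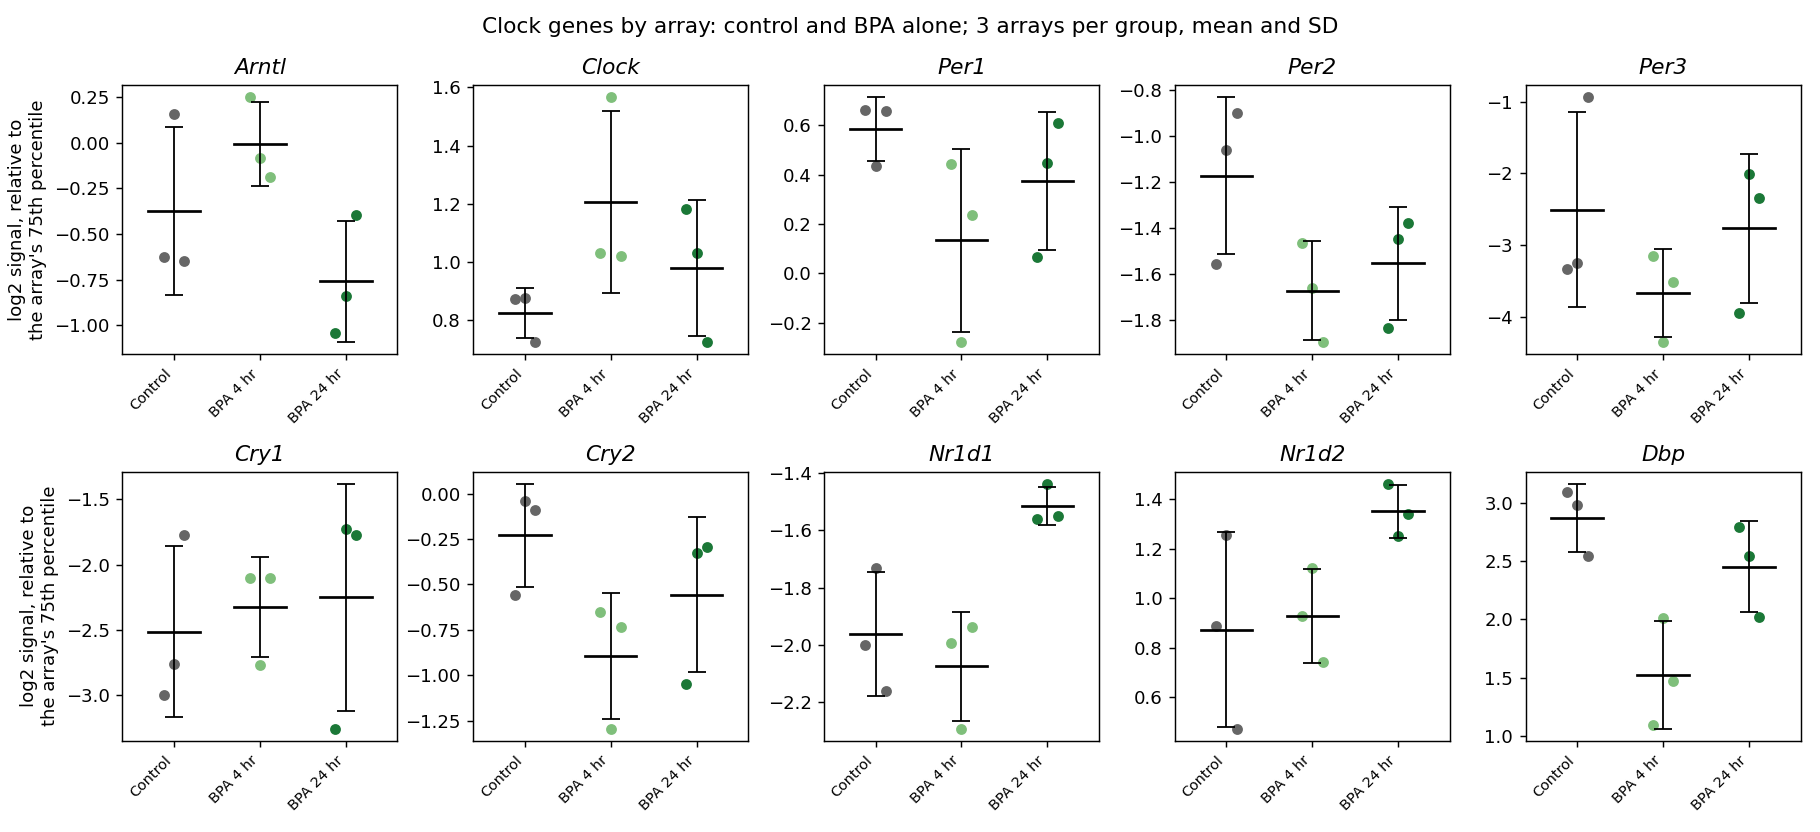
Level of each clock gene on each array of the second set, as log2 signal relative to the array's 75th percentile, for control and BPA at 4 and 24 hr. Points are arrays, lines are means and bars the SD over 3 arrays. Dbp at 4 hr reads 1.09 to 2.01, below the controls at 2.54 to 3.09.

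The Methods give a threshold of a Bonferroni p below 0.01, from an error-weighted analysis of variance, and a fold change beyond 1.5. It was applied here to limma p, so the calls are not those of the study. With it 4 clock genes were called after KBrO3 at 4 hr, against 31.2% of all genes, and 4 after co-exposure at 4 hr, against 35.9%. Counted by the brightest probe of each gene, they were Dbp, Arntl, Cry1 and Cry2 in both comparisons. Clock probes A_52_P161365 and A_52_P334677 also passed in both, while the brightest Clock probe did not. None of the clock genes passed it after KBrO3 at 24 hr (20.0% of all genes), after co-exposure at 24 hr (23.8%), after BPA at 4 hr (0.114%) or 24 hr (0.0318%), or for BPA added to KBrO3 at 4 hr (5.99%) or 24 hr (7.43%).

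A list of 25 further genes of the clock pathway, which takes in paralogs, E-box repressors, ROR receptors, D-box factors, kinases, F-box proteins and outputs, had 23 genes tested in the first set and all 25 in the second. After KBrO3 at 4 hr 12 were higher and 6 lower, against 34.5% and 38.2% of all genes, and after co-exposure 14 and 6, against 39.7% and 40.7%. At 24 hr the counts were 8 and 10 after KBrO3, against 31.3% and 38.1%, and 9 and 11 after co-exposure, against 34.5% and 38.0%. With BPA alone 1 was higher and 2 lower at 4 hr, against 3.01% and 1.67%, and 2 and 1 at 24 hr, against 1.83% and 2.48%.

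The 5 genes of that list with the largest difference from control were Ciart, Rorb, Nfil3, Por and Klf10. Ciart, which encodes a repressor of CLOCK-BMAL1, was 1.79 higher after KBrO3 and 2.46 higher after co-exposure at 4 hr, and 0.39 and 1.64 higher at 24 hr. It was also called after BPA alone at 24 hr (1.70) and not at 4 hr (1.32). Nfil3, whose protein competes with DBP for D-boxes, was 1.78 higher after BPA alone at 4 hr and 1.14 at 24 hr, but 0.18 and 0.38 higher after KBrO3 and co-exposure at 4 hr and lower at 24 hr, at -0.56 and -0.31. Rorb, a nuclear receptor that can activate Arntl, was 2.18 and 1.21 higher at 4 hr and 1.16 and 0.66 higher at 24 hr after KBrO3 and co-exposure. Por, the electron donor of cytochrome P450 enzymes, was 1.70 and 1.41 higher at 4 hr, and at 24 hr it was lower after KBrO3 (-0.21) and not called after co-exposure (0.11). Klf10, a zinc finger repressor, was 1.58 and 1.70 higher at 4 hr, and at 24 hr higher after KBrO3 (0.44) and lower after co-exposure (-0.41) and after BPA alone (-1.05).

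Genes whose pattern was most like that of a clock gene were sought over the 15 arrays of the first set among 11748 genes well above background on all of them. For Dbp the highest Pearson r was 0.998, with Spsb2, followed by Dhx58 and Uqcc3. For Arntl it was 0.997, with Acsl3, followed by Cyp51 and Prnp, and for Clock 0.993, with Abhd17b. Per2 was most like Arhgap21 (0.986), Cry1 like Tpp2 (0.988) and Nr1d1 like Rbm10 (0.876), the lowest of these maxima. Nr1d2 was most like Atg5 (0.974), Cry2 like Vmn1r25 (0.984) and Per1 like Atp6ap1 (0.935). The 15 points share groups and slides, and the values are given as a description. Per3 was not above background on all 15 arrays and was left out.

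Promoter windows were searched for clock-related motifs on both strands in the 250 bases before the annotated start. RefSeq windows on GRCm38.p6 were found for Arntl, Clock, Per1, Per3, Cry1, Cry2, Nr1d1, Nr1d2 and Dbp. Arntl and Per1 had 2 windows each and Clock 3. No window was found for Per2, which was therefore not searched. All Per1 matches lay in the first of its windows. The E-box CACGTG, which occurs in 6.02% of 32851 such windows, was found in Per1 and Cry1. The E-box variant CACGTT (3.85%) was found in Cry1, Cry2 and Nr1d1, and the D-box TTATGTAA (0.819%) at 2 places in Per3. TGACNNNGC (10.2%), the core of the antioxidant response element, was found in Per1 and Cry2. The receptor motifs TAGGTCA (2.23%) and TGGGTCA (3.24%) and the cyclic AMP element TGACGTCA (1.55%) were found in none of the windows, and Arntl, Clock, Nr1d2 and Dbp held no match. A match is a description of the letters and not of binding.

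The windows with matches in the Per and Cry genes are shown in full, since Per1, Cry1 and Cry2 were higher and Per3 lower at 4 hr in both treatments. Capitals mark the motif matches. They lie at chr10:85185055-85185304 (Cry1, minus strand), chr2:92434070-92434319 (Cry2, minus strand), chr11:69098699-69098948 (Per1, plus strand) and chr4:151044666-151044915 (Per3, minus strand), and each is written 5′ to 3′ along the gene.
Cry1: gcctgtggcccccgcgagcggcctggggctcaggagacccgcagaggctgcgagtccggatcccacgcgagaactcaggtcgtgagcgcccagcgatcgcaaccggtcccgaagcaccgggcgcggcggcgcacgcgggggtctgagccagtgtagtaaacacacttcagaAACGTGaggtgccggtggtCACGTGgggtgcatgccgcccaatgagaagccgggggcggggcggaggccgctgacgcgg
Cry2: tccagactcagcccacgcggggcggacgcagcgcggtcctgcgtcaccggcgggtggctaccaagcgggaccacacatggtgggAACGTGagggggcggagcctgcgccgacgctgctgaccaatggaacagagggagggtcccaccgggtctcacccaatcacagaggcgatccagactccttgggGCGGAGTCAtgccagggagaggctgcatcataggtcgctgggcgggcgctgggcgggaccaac
Per1: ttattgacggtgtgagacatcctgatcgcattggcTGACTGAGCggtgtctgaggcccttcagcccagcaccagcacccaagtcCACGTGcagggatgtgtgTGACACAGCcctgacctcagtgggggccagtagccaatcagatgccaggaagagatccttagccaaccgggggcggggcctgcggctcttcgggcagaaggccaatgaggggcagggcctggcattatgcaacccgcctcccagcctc
Per3: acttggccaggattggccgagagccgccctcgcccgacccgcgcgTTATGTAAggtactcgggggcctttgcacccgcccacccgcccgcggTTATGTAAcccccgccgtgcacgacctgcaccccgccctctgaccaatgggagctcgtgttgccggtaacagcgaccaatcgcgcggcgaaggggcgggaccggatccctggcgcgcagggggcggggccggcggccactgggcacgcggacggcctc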

How the data were processed

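RNA of 24 samples was hybridized to 1-color Agilent whole mouse genome arrays. The authors deposited fluorescence intensity values per spot as written by Agilent's Feature Extraction software, per the file headers version 9.5.3.1 for the first set of 15 arrays and 12.0.0.7 for the second set of 9. The series table they deposited holds the same signal (1080432 of 1080432 values were equal). Values were not normalized between arrays. Probe coordinates are those of mm7 in the annotation of the first set.

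Processed signals were converted to log2 in R 4.3.3, the 75th percentile of each array was subtracted, outlier spots were left out and the spots of each probe were averaged. A probe was tested if some group had it well above background on all of its arrays, which 27310 probes met for the first 15 arrays and 31810 for the other 9. Each set had 1 fit with limma 3.58.1 (two-sided) and Benjamini-Hochberg adjustment over all probes of the set. Percentages of all genes count each gene by its brightest probe. The number of arrays limits the precision.

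Genes named are all 10 clock genes, the 5 of the pathway list with the largest difference from control, and up to 3 genes most like each clock gene. The members and lists were chosen with earlier results of these data known. Alternatives covered scaling, background correction, filters, probe summary, weights, blocks, thresholds and leaving out each array. Normexp used the median spot signal in the second set. A version of it that limits extreme differences of signal and background to their lowest 0.1 percent was chosen after seeing the data. Promoter windows were searched with Python 3.11.15.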

Additional observations from a re-analysis of the deposited data

Results flagged for a closer look

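The difference from control changed between 4 and 24 hr in a direct limma test for 15 pairs of clock gene and treatment. In the same tests 77.7% of all genes were called after KBrO3 and 84.5% after co-exposure. After KBrO3 the change was 1.97 for Dbp, 0.66 for Per3, -1.18 for Arntl, -1.03 for Cry1, -0.84 for Per2, -0.54 for Clock, -0.33 for Cry2 and -0.17 for Nr1d2. After co-exposure it was 2.33 for Dbp, 0.31 for Per3, -1.87 for Arntl, -1.44 for Clock, -1.12 for Per2, -0.99 for Cry1 and -0.68 for Cry2. The control is the same in both terms and drops out, so each value is the 24 hr mean minus the 4 hr mean. The limits of time in culture and slide given above for these differences hold here too.

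The effect of BPA added to KBrO3 differed between 4 and 24 hr for 4 clock genes, against 57.4% of all genes. The change was -0.69 for Arntl, -0.91 for Clock, -0.36 for Cry2 and 0.35 for Dbp. The Clock probe A_52_P279391 was not called in this test, and neither was the dimmer Cry2 probe. Probes called where the brightest of their gene was not were Nr1d1 A_52_P130952 (-1.22, adjusted p = 0.00874) and A_52_P130961 (-2.42, adjusted p = 0.00307) and Cry1 A_52_P420500 (0.54, adjusted p = 0.0489). The 3 co-exposed 4 hr arrays lie on 1 slide with KBrO3 24 hr replicate 1, and the part of the slide in these values was not tested.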

How the results depend on the processing

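Counts of clock genes called moved under some settings. The threshold of the Methods, a Bonferroni p below 0.01 and 1.5-fold, was applied to limma p. With it the count went from 9 to 4 for KBrO3 at 4 hr, 10 to 4 for co-exposure at 4 hr, 8 to 0 for each at 24 hr, 1 to 0 for BPA at 4 hr, 4 to 0 for added BPA at each time and for its change with time, 8 to 2 for KBrO3 from 4 to 24 hr and 7 to 4 for co-exposure. With an adjusted p below 0.05 and 1.5-fold it was 1 for KBrO3 and 2 for co-exposure at 24 hr, 0 for added BPA at each time, 5 for KBrO3 from 4 to 24 hr and 2 for the change with time. With normexp as planned it was 5 for KBrO3 at 24 hr, 6 for co-exposure at 4 hr, 3 for KBrO3 from 4 to 24 hr, 1 for the change with time, and 0 for BPA at 4 hr and for added BPA at each time. With all 24 arrays in 1 fit it was 4 for KBrO3 at 24 hr, co-exposure at 24 hr, BPA at 4 hr and BPA from 4 to 24 hr, 2 for BPA at 24 hr, 5 for KBrO3 from 4 to 24 hr, 0 and 1 for added BPA at 4 and 24 hr, and 1 for the change with time. Scaling to the median gave 2 for added BPA at 24 hr, and no filter or slide as a random block gave 2 for it at 4 hr. BPA at 4 hr went to 0 with scaling to the median, no filter, only the arrays compared or slide as a fixed block.

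Replicate numbers did not pair the samples, as the mean correlation of same-numbered deviations was -0.029 and 0.0020 in the 2 sets. With the replicate block, BPA at 4 hr went from 1 call to 0 (Dbp -1.35, adjusted p = 0.0617).

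Leaving out 1 array in turn gave 9 to 10 calls for KBrO3 and 8 to 10 for co-exposure at 4 hr, 8 to 8 and 7 to 8 at 24 hr, 0 to 1 and 0 to 0 for BPA at 4 and 24 hr, 2 to 5 and 4 to 5 for added BPA, 6 to 9, 6 to 8 and 0 to 0 from 4 to 24 hr for KBrO3, co-exposure and BPA, and 4 to 5 for the change with time.

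Directions reversed mostly with normexp as planned, whose fit was degenerate on several arrays that hold a few spots far below their background. There Cry1 was -0.12 and -1.01 for KBrO3 at 4 and 24 hr and -0.12 (4 hr) and -0.84 (24 hr) for co-exposure, Cry2 was -0.027 for KBrO3 at 24 hr, Nr1d1 was -0.053 for KBrO3 at 24 hr, -0.11 for co-exposure at 4 hr and -0.051 at 24 hr, and Per3 was -0.28 and -0.23 from 4 to 24 hr of KBrO3 and co-exposure. With extreme spots limited, Per3 was -0.03 for added BPA at 4 hr and -0.11 from 4 to 24 hr of KBrO3. With the mean of all its probes, Nr1d1 was -0.99 from 4 to 24 hr of co-exposure. Signal over background limits Per3.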
